A study of Mus musculus with 6 samples.

Results

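The 36 genes described here encode enzymes that make, recycle and phosphorylate purine and pyrimidine nucleotides or, like Samhd1, break them down. They were chosen by name as a list of synthesis and salvage enzymes, and all 36 were found among the 55335 gene identifiers of the count table. They were compared between P14 CD8+ T cells sorted from B16-GP33-41 melanoma (P14 TIL, 3 libraries) and P14 CD8+ T cells sorted from the spleens of the same tumor-bearing mice (P14 Sp, 3 libraries). P14 cells carry a transgenic T cell receptor for the GP33-41 peptide, which the implanted melanoma cells express. Both groups share the P14 TCR transgenic genotype, the C57BL/6 strain, an age label of 10 weeks and transfer on day 11 after tumor implantation. The labels do not say how long the cells stayed in the host, whether the age is that of donors or hosts, or whether each library is a mouse of its own. The p-values therefore cover the spread between these libraries, which may be technical.

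Purine rings are built step by step on phosphoribosyl pyrophosphate (PRPP) to give inosine monophosphate (IMP), which is then turned into AMP or GMP. The pyrimidine ring is made first as orotate and joined to PRPP to give UMP, the source of CTP. Ribonucleotide reductase and thymidylate synthase turn ribonucleotides into DNA precursors, while salvage enzymes recover free bases and nucleosides. Resting T cells rely largely on salvage, and activated T cells that copy their DNA switch on the de novo routes.

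Of the 36 genes, 30 were higher in P14 TIL, 4 were lower and 2 did not pass (quasi-likelihood test of edgeR with p-values adjusted by Benjamini-Hochberg, threshold 0.05). Over all 19783 genes tested, 34.8% were called higher and 35.9% lower, so the share of higher calls among the nucleotide genes (83.3%) was well above the background and the share of lower calls (11.1%) below it. The median log2 fold change, tumor over spleen, was 0.76 for the 36 genes and -0.02 for all genes tested. The libraries of both tissues did not overlap for 34 of the 36 genes, against 74.5% of all genes tested. None of these backgrounds was matched for level. The 36 genes had at least 214 counts per library, and all genes tested include ones with far fewer. Against a null of a 2-fold change, a setting added after the data were seen, 9 of the genes were higher (Pfas, Gart, Impdh2, Cad, Umps, Ctps, Dut, Dctpp1 and Adk) and 1 was lower (Samhd1), where the background was 5.87% higher and 9.42% lower. Levels are given in CPM, counts scaled to a library total of 1000000. The 36 genes summed to 3702, 3773 and 3918 CPM in P14 TIL, against 2646, 2645 and 2619 CPM in P14 Sp. These sums include Samhd1, with a mean of 175.6 CPM in P14 TIL and 515.5 CPM in P14 Sp.

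**Figure D1:**
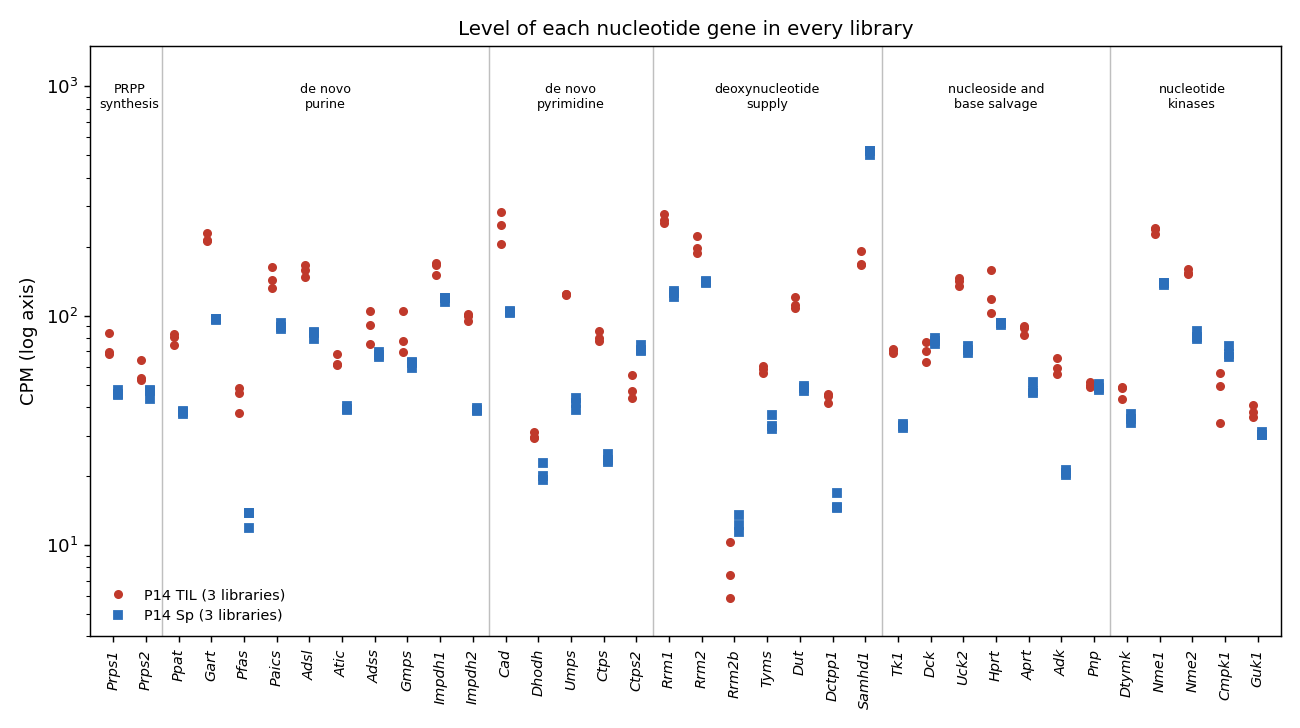
Level of each of the 36 genes in CPM (log axis), 1 point per library, with P14 TIL as red circles left of P14 Sp as blue squares, ordered by role. Red points lie above blue ones for 30 genes, below them for Ctps2, Rrm2b, Samhd1 and Cmpk1, and overlap them for Dck and Pnp.

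Library totals were 36198681 to 38263483 counts in P14 TIL and 35095261 to 37650999 counts in P14 Sp. Replicates were less alike in tumor, where the fitted biological coefficient of variation was 10.5%, against 3.21% in spleen. The CD8 gene Cd8a was at 636, 630.5 and 670 CPM in P14 TIL and 360.5, 359.8 and 372 CPM in P14 Sp, and Cd3e at 586 to 601 CPM in P14 TIL and 629 to 638 CPM in P14 Sp. Markers of B cells (10 of 10), macrophages and monocytes (10 of 10) and dendritic cells with MHC class II genes (8 of 8) were lower in P14 TIL. Summed, the B cell markers were at 281 to 283 CPM in P14 TIL and 1353 CPM in each P14 Sp library, of which Ighm gave 269 to 272 CPM in P14 TIL and 799.6 to 816 CPM in P14 Sp, while Cr2 had 0 counts in P14 TIL (a count of 0 allows up to 0.0829 CPM). Macrophage markers summed to 35.2 to 37.5 CPM in P14 TIL and 263 to 280 CPM in P14 Sp, led by Csf1r or Itgam in P14 TIL and by Lyz2 in P14 Sp, and the dendritic cell and class II list summed to 42.3 to 45.1 CPM in P14 TIL and 1629 to 1673 CPM in P14 Sp, led by Cd74 in both. The part of these cells in the values below was not tested, and in such bulk samples fewer cells of a type and less RNA per cell cannot be told apart. Neutrophil markers were lower too (6 of 6 tested), 5 of 8 erythroid markers were higher and 3 lower, and of the 8 CD8 T cell genes 1 was higher and 3 lower. Of 7 melanoma markers, 3 were tested, of which Dct was called higher at 0.439 to 0.470 CPM in P14 TIL and at most 0.0266 CPM in P14 Sp, and Pmel was lower. The codes in the sample descriptions have one ending for all P14 TIL libraries and another for all P14 Sp libraries, so a batch behind these codes, if there was one, cannot be told apart from tissue.

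All 10 genes of the de novo purine route were higher in P14 TIL, with log2 fold changes of 0.45 to 1.78. The neighbours Ppat and Paics, which catalyse the committed entry step and a middle pair of steps, are shown with their start regions, since both rose and lie head to head on mouse chromosome 5 (mm10), with 272 bases of their exons overlapping on opposite strands. Ppat lies at chr5:76913249-76951578 on the minus strand and Paics at chr5:76951307-76967509 on the plus strand. The overlap is 6.2% of the Ppat exons and 8.7% of the Paics exons. Whether the counting used strand is not stated, so reads of this stretch cannot be assigned to 1 of these genes. Impdh2, the gene of this route with the largest rise after Pfas, is shown beside Ppat and Paics and lies at chr9:108560286-108565584 on the plus strand. The windows are RefSeq sequences of GRCm38.p6 from 250 bases before to 50 bases after the RefSeq start, written 5′ to 3′ on the strand of the gene. The gene positions above are those of GENCODE M21, whose start is the same for Ppat, 5 bases away for Paics and 150 bases upstream of the RefSeq start for Impdh2. The CACGTG of Impdh2, 110 bases before the RefSeq start, thus lies inside the GENCODE gene interval. That of Paics, 203 bases before its RefSeq start, lies inside the GENCODE interval of Ppat. Capitals mark the E-box letters CACGTG, which the transcription factor MYC is known to bind, or the E2F letters TTTCCCGC, on either strand (GCGGGAAA is TTTCCCGC read on the opposite strand).
Ppat, chr5:76951529-76951828, minus strand: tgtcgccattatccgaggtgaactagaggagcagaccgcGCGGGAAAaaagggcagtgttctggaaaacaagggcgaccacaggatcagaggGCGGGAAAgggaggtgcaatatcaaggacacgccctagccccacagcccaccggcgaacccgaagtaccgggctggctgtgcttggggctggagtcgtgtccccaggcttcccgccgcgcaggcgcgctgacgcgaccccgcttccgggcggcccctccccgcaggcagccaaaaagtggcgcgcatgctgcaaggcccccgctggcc
Paics, chr5:76951052-76951351, plus strand: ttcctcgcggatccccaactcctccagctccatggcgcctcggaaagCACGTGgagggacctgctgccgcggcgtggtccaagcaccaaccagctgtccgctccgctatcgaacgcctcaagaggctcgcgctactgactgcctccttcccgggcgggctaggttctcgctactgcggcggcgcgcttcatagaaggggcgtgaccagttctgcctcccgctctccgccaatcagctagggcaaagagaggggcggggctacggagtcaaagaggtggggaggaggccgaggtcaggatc
Impdh2, chr9:108560186-108560485, plus strand: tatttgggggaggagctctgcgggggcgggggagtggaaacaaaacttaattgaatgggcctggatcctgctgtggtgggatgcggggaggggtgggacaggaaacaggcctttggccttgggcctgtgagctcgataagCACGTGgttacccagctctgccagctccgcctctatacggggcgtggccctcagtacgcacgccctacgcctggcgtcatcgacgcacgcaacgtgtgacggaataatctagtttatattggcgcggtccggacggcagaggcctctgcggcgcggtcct
Windows were found for 33 of the 36 genes. CACGTG was present for 6 of these 33 (18.2%: Atic, Dtymk, Impdh2, Nme1, Paics and Tyms), against 11.4% of the 10569 tested genes with a window and 7.15% of all 32851 windows. TTTCCCGC was present for 2 of the 33 (6.1%: Ppat and Prps2), against 2.32% of tested genes and 1.07% of all windows. These matches describe the letters only. All 8 matched genes were higher, where 83.3% of the 36 genes were higher with or without a match. Among the genes higher against a null of a 2-fold change, Impdh2 alone had a match. A link between these letters and the rise was not tested.

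PRPP synthetase supplies the sugar phosphate for both ring systems. Prps1 was at 67.8, 69.6 and 84.5 CPM in P14 TIL, against 45.2, 45.5 and 47.6 CPM in P14 Sp (log2 fold change 0.71, SE 0.08, adjusted p = 9.1e-06). Prps2 was at 52.5, 53.4 and 64.4 CPM in P14 TIL, against 47.1, 47.5 and 43.5 CPM in P14 Sp (0.33, SE 0.08, adjusted p = 0.0029). Both genes had their highest value in P14 TIL replicate 3, and the tissues did not overlap for either. Of all stretches of read length (50 bases, called read-length words below) in the longest Prps1 transcript, 10.1% also occur in the gene model Prps1l3, and with the counts of both summed the log2 fold change was 0.48.

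Among the enzymes that lead to IMP, Pfas, which adds an amide nitrogen, changed most, at 48.6, 46.1 and 37.8 CPM in P14 TIL and 13.8, 11.9 and 13.8 CPM in P14 Sp (3.42-fold, log2 1.78, SE 0.11, adjusted p = 7.1e-08). Gart, a single protein with 3 activities of the route, was at 211, 229.9 and 213 CPM in P14 TIL and 97.1, 95.5 and 96.9 CPM in P14 Sp (log2 1.21, SE 0.06, adjusted p = 6.9e-09). Ppat was at 74.3, 80.8 and 83.3 CPM in P14 TIL and 38.3, 38.03 and 37.4 CPM in P14 Sp (log2 1.10, SE 0.06, adjusted p = 2.7e-08). In each of these the lowest tumor library was well above the highest spleen library. The later enzymes had log2 fold changes of 0.96 for Adsl, 0.72 for Paics and 0.71 for Atic. Of the Gart exons, 19.7% lie under the antisense model Gm15964, which was itself at 39.3 to 41.3 CPM in P14 TIL and 18.0 to 18.4 CPM in P14 Sp (log2 1.18). Whether the counting used strand is not stated in the labels, so reads of the shared stretch cannot be assigned. With both summed the log2 fold change of Gart was 1.2.

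Beyond IMP, all 4 genes that act only in the branches to GMP and AMP were higher, with the largest log2 fold change in Impdh2. This gene for IMP dehydrogenase, the rate-limiting enzyme of guanine nucleotide synthesis, was at 94.6, 99.8 and 102 CPM in P14 TIL and 38.5, 38.7 and 39.4 CPM in P14 Sp (2.59-fold, log2 1.38, SE 0.06, adjusted p = 2.7e-09). Its paralog Impdh1 was at 167, 169 and 151 CPM in P14 TIL and 114, 119 and 119 CPM in P14 Sp (1.41-fold, log2 0.49, SE 0.06, adjusted p = 3.2e-05). The spleen libraries were nearly level for both genes, and no tumor library reached into their range. The gene that makes GMP itself, Gmps, rose by 0.48 on the log2 scale (SE 0.11, adjusted p = 0.0030), and Adss, of the branch to AMP, by 0.45 (SE 0.09, adjusted p = 0.0011). Both were highest in P14 TIL replicate 3 (105 CPM each), and without that library the log2 fold changes were 0.31 for Gmps and 0.35 for Adss, still called.

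The level of Impdh2 is uncertain, because 73.9% of the read-length words of its transcript also occur in the pseudogene model Impdh2-ps. That model was at 127.5, 133.7 and 137 CPM in P14 TIL and 49.45, 51.0 and 52.3 CPM in P14 Sp. Its log2 fold change was 1.41, close to that of Impdh2. With the counts of both summed, the locus pair was at 222, 233 and 239.5 CPM in P14 TIL and 87.9, 89.7 and 91.7 CPM in P14 Sp (log2 1.4, adjusted p = 1.4e-09).

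**Figure D2:**
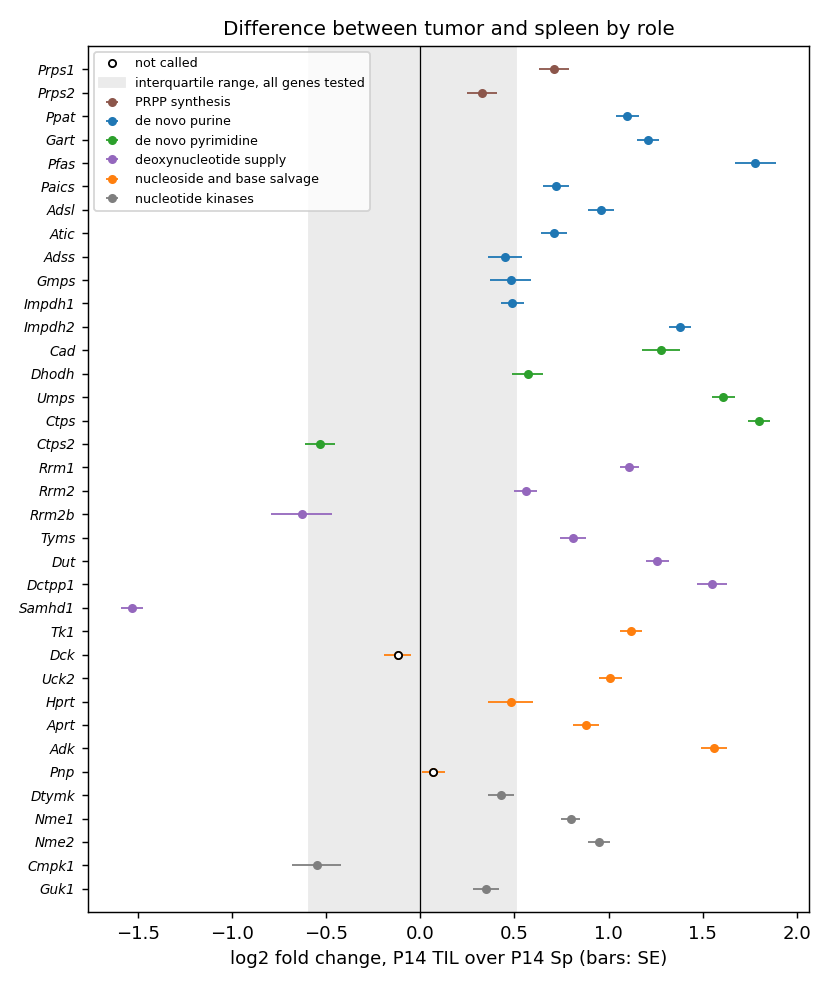
Log2 fold change of each gene, P14 TIL over P14 Sp, with bars of 1 approximate SE, coloured by role, where open circles did not pass the test. The grey band is the interquartile range of all 19783 genes tested (-0.59 to 0.51), and 23 of the 36 genes lie to the right of it.

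Of the 5 genes of the de novo pyrimidine route, 4 were higher in P14 TIL and 1, Ctps2, was lower. Cad, a fusion protein for the opening 3 steps, was at 283.5, 249.8 and 206 CPM in P14 TIL and 103, 105 and 103 CPM in P14 Sp (log2 1.28, SE 0.10, adjusted p = 6.3e-07). Here P14 TIL replicate 3 was the lowest tumor library, still well above every spleen library. Dhodh, the mitochondrial enzyme that makes orotate, rose by 0.57 (SE 0.08, adjusted p = 7.7e-05), and Umps, which turns orotate into UMP, was at 124, 124 and 125 CPM in P14 TIL and 41.6, 44.0 and 38.8 CPM in P14 Sp (3.05-fold, log2 1.61, SE 0.06, adjusted p = 1.6e-09).

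The CTP synthetases moved in opposite directions. Ctps is the enzyme on which proliferating human lymphocytes depend. It was at 77.6, 80.3 and 86.2 CPM in P14 TIL and 23.4, 24.97 and 23.02 CPM in P14 Sp (3.49-fold, log2 1.80, SE 0.06, adjusted p = 9.3e-10). With all libraries this was the largest rise among the 36 genes, and Pfas was close (log2 1.78, SE 0.11). Without P14 TIL replicate 3, Pfas was at 1.89 and Ctps at 1.78, and Pfas also led without P14 Sp replicate 1 or 3. Ctps2 was at 43.9, 46.9 and 55.2 CPM in P14 TIL and 74.7, 70.3 and 70.6 CPM in P14 Sp (log2 -0.53, SE 0.08, adjusted p = 7.4e-05). Every tumor library thus had more Ctps than Ctps2 counts and every spleen library fewer. Per exon length, Ctps was at 24.5 ± 1.32 CPM per kb and Ctps2 at 10.3 ± 1.24 CPM per kb in P14 TIL, against 7.17 ± 0.312 and 15.2 ± 0.521 CPM per kb in P14 Sp (SD, n = 3). Ctps lies at chr4:120539868-120570276 on the minus strand and Ctps2 at chrX:162901238-163032508 on the plus strand of mm10. Only 1.3% of the read-length words of Ctps, and 0 of those of Ctps2, occur in other gene models.

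**Figure D3:**
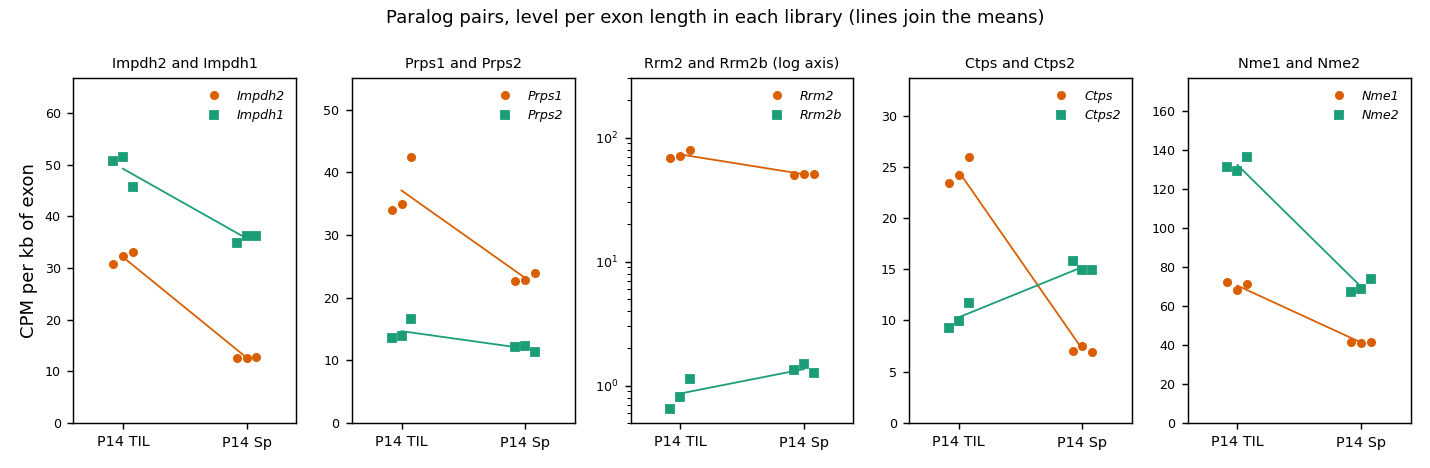
Level of 5 pairs of related enzymes in CPM per kb of annotated exon (log axis for Rrm2 and Rrm2b), 1 point per library, with P14 TIL left of P14 Sp and lines joining the means. As counted for the named genes alone, the Ctps and Ctps2 lines cross and those of the other pairs do not, while Impdh2 with Impdh2-ps summed into it had more counts than Impdh1 in every P14 TIL library and fewer in every P14 Sp library.

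Within each library, the log2 ratio of Ctps to Ctps2 counts was 0.75 ± 0.09 in P14 TIL and -1.6 ± 0.09 in P14 Sp (SD, n = 3), a difference of 2.34. The ratio of Impdh2 to Impdh1 was -0.71 ± 0.14 in P14 TIL and -1.6 ± 0.03 in P14 Sp, and that of Rrm2 to Rrm2b 4.72 ± 0.29 in P14 TIL and 3.51 ± 0.12 in P14 Sp. Prps1 over Prps2 was at 0.38 ± 0.01 in P14 TIL and 0.0 ± 0.11 in P14 Sp, and Nme1 over Nme2 at 0.6 ± 0.04 in P14 TIL and 0.75 ± 0.07 in P14 Sp. Counts of shared sequence change some of these ratios. With Impdh2-ps summed into Impdh2, the ratio to Impdh1 turned positive in tumor, at 0.52 ± 0.14 in P14 TIL and -0.39 ± 0.02 in P14 Sp, while the difference between tissues was 0.91, against 0.89 without the sum. With Prps1l3 summed into Prps1, the ratio to Prps2 was 1.15 ± 0.02 in P14 TIL and 1.0 ± 0.08 in P14 Sp, and the difference was 0.15, against 0.38 without the sum. For each of these 5 pairs, and for both sums, the tissues did not overlap. For the 5 pairs the two-sided exact permutation p was 0.1 (adjusted over the 5 pairs 0.1), the smallest that 3 against 3 libraries allow.

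Of the 7 genes that make or break down deoxynucleotides, 5 rose and 2 fell, Rrm2b and Samhd1. The enzyme of Samhd1 is one of breakdown and not of supply. Rrm1, the large subunit of ribonucleotide reductase, was at 262, 254 and 276 CPM in P14 TIL and 126, 121 and 128 CPM in P14 Sp (2.15-fold, log2 1.11, SE 0.05, adjusted p = 1.2e-08). Its S-phase small subunit Rrm2 was at 188, 198 and 222 CPM in P14 TIL and 139, 141 and 141 CPM in P14 Sp (1.47-fold, log2 0.56, SE 0.06, adjusted p = 7.5e-06). The tissues did not overlap for either subunit, and whether their fold changes differ was not tested. Rrm2b, the small subunit that p53 induces and that serves resting cells, was at 5.87, 7.42 and 10.3 CPM in P14 TIL and 12.2, 13.55 and 11.4 CPM in P14 Sp (log2 -0.63, SE 0.16, adjusted p = 0.0044). Its tumor libraries spread most of all 36 genes, with a highest to lowest ratio of 1.76. Of its read-length words, 11.0% occur in other gene models.

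Enzymes that keep uracil and altered bases out of DNA rose as well. Dctpp1, a pyrophosphatase for modified dCTP, was at 45.4, 44.5 and 41.7 CPM in P14 TIL and 14.6, 14.45 and 16.9 CPM in P14 Sp (2.93-fold, log2 1.55, SE 0.08, adjusted p = 2.4e-08). Dut, the dUTPase that also yields the substrate of thymidylate synthase, was at 111, 108 and 121 CPM in P14 TIL and 48.3, 47.1 and 49.3 CPM in P14 Sp (log2 1.26, SE 0.06, adjusted p = 8.5e-09). Tyms, the thymidylate synthase, rose by 0.81 (SE 0.07, adjusted p = 9.8e-07), and by 0.85 with the model Tyms-ps summed into it.

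Samhd1, which breaks down deoxynucleotide triphosphates and is known to be interferon-inducible, fell most of the 36 genes. It was at 167, 169 and 191 CPM in P14 TIL, against 522.5, 520.5 and 503 CPM in P14 Sp (log2 -1.53, SE 0.06, adjusted p = 1.7e-09, 2.88-fold lower). All spleen libraries lay far above all tumor libraries. Myeloid and B cells also express Samhd1, and their markers were lower in the same libraries, with 35.2 to 37.5 CPM of summed macrophage markers in P14 TIL and 263 to 280 CPM in P14 Sp; their part in this fall was not tested. Samhd1 lies at chr2:157097533-157135265 on the minus strand of mm10.

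Salvage genes rose in 5 of 7 cases, and 2 did not pass. Adk, which rephosphorylates adenosine, was at 55.5, 58.9 and 65.6 CPM in P14 TIL and 20.7, 20.2 and 21.3 CPM in P14 Sp (2.95-fold, log2 1.56, SE 0.07, adjusted p = 6.6e-09). Tk1, the cytosolic thymidine kinase of cycling cells, was at 71.6, 71.1 and 68.6 CPM in P14 TIL and 32.5, 33.9 and 33.1 CPM in P14 Sp (log2 1.12, SE 0.06, adjusted p = 2.6e-08). Uck2, a uridine and cytidine kinase, was at 142, 145 and 134 CPM in P14 TIL and 70.8, 73.6 and 68.9 CPM in P14 Sp (log2 1.01, SE 0.06, adjusted p = 5.2e-08). For these 3 kinases the libraries of a tissue lay close together and the tissues far apart.

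The purine base salvage enzymes were higher too. Aprt, for adenine, had a log2 fold change of 0.88 (SE 0.07, adjusted p = 5.1e-07). Hprt, for hypoxanthine and guanine, was at 102, 118 and 158 CPM in P14 TIL and 92.55, 93.3 and 90.8 CPM in P14 Sp (log2 0.48, SE 0.12, adjusted p = 0.0035). P14 TIL replicate 3 was the highest library, and without it the log2 fold change was 0.3, still called.

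Dck, the deoxycytidine kinase, was at 62.6, 69.9 and 76.96 CPM in P14 TIL and 79.6, 77.7 and 75.4 CPM in P14 Sp (log2 -0.12, SE 0.07, adjusted p = 0.13). Only P14 TIL replicate 3 reached the spleen range, and without it the gene was called lower (log2 -0.18, adjusted p = 0.0097), as it was with upper-quartile scaling (adjusted p = 0.041). Pnp, which splits purine nucleosides and whose loss is toxic to T cells, was at 48.8, 50.1 and 51.4 CPM in P14 TIL and 50.2, 47.5 and 48.2 CPM in P14 Sp (log2 0.07, SE 0.06, adjusted p = 0.30). Its tissues overlapped, and 28.7% of its read-length words occur in other models, chiefly Gm49342. Summed with Gm49342 and its neighbour Pnp2, it had a log2 fold change of 0.08 (adjusted p = 0.24).

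The kinases that turn monophosphates and diphosphates into triphosphates rose in 4 of 5 cases. Nme1 was at 241, 228 and 238 CPM in P14 TIL and 139, 136 and 139 CPM in P14 Sp (log2 0.80, SE 0.05, adjusted p = 1.2e-07), and its neighbour Nme2 at 154, 151 and 160.0 CPM in P14 TIL and 78.9, 80.7 and 86.2 CPM in P14 Sp (log2 0.95, SE 0.06, adjusted p = 6.1e-08). Both encode nucleoside diphosphate kinases. A read-through gene model, Gm20390, shares 54.5% of the read-length words of Nme2 and 11.8% of those of Nme1, so their separate levels are uncertain. That model was at 288, 270.4 and 279 CPM in P14 TIL and 151, 153 and 157 CPM in P14 Sp, and the sum of all 3 had a log2 fold change of 0.87 (adjusted p = 5.2e-08).

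Dtymk, the thymidylate kinase, was at 43.5, 48.9 and 48.5 CPM in P14 TIL and 37.3, 35.5 and 34.2 CPM in P14 Sp (log2 0.43, SE 0.07, adjusted p = 0.00015), and Guk1, the guanylate kinase, rose by 0.35 (SE 0.07, adjusted p = 0.0010). Cmpk1, the UMP and CMP kinase, fell. It was at 34.0, 49.2 and 56.4 CPM in P14 TIL and 73.7, 68.1 and 65.9 CPM in P14 Sp (log2 -0.55, SE 0.13, adjusted p = 0.0035). All tumor libraries lay below all spleen libraries, but the tumor values differed 1.66-fold among themselves, and without P14 TIL replicate 1 the log2 fold change was -0.36, still called.

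P14 TIL replicate 3 stood apart from its partners for several genes. Of the 36 genes, 22 had their highest tumor value in replicate 3, 9 in replicate 1 and 5 in replicate 2, while 21 had their lowest in replicate 1. These ranks use CPM without the scaling factors of the fit, which were 0.9745 for P14 TIL replicate 1, 0.991 for replicate 2 and 1.005 for replicate 3. The same counts over all genes tested were not made. The highest to lowest ratio had a median of 1.12 in P14 TIL and 1.06 in P14 Sp, with maxima of 1.76 in P14 TIL and 1.19 in P14 Sp. Cad, Pfas and Adsl were among the 9 genes lowest in replicate 3.

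Folate enzymes are known to carry the one-carbon units used for the purine ring and thymidylate, and only their mRNA was measured here. Of 14 folate genes tested, 8 were higher and 1 lower (median log2 fold change 0.86), against 34.8% higher and 35.9% lower over all genes tested. The 3 higher genes with the smallest p were Shmt1 (2.65), the mitochondrial Mthfd2 (1.72), at 144 ± 4.73 CPM in P14 TIL and 44.7 ± 2.34 CPM in P14 Sp, and the folate carrier Slc19a1 (2.05). The pentose phosphate pathway, the source of ribose, had 3 of 9 genes higher, 1 lower and a median of 0.12. Its share of higher genes (33.3%) was near that of all genes tested (34.8%). The largest rise of this pathway was Tkt, a transketolase (0.78), at 329 ± 28.1 CPM in P14 TIL and 196 ± 1.89 CPM in P14 Sp. Pgd (0.19) and Pgls (0.21) were the other higher genes and Taldo1 (-0.28) the lower one.

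Of 27 other nucleotide kinase and salvage genes tested, 13 were higher and 6 lower (median 0.16). That is 48.2% higher, against 34.8% higher and 35.9% lower over all genes tested. Ak4, a mitochondrial adenylate kinase, was at 11.9 ± 1.75 CPM in P14 TIL and 0.0924 ± 0.0863 CPM in P14 Sp (log2 7.0, SE 0.32, adjusted p = 6.2e-09). Mtap, which salvages adenine from methylthioadenosine (1.0), and the deaminase Dctd (1.6) rose too. Among the lower genes, the 3 with the smallest p were all kinases of mitochondrial deoxynucleotide supply: Cmpk2 (-1.67), at 32.3 ± 0.906 CPM in P14 TIL and 105 ± 0.969 CPM in P14 Sp, Tk2 (-1.15) and Dguok (-0.57). Cmpk2, like Samhd1, is known to be interferon-inducible, and a part of interferon in either fall was not tested.

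DNA replication genes, the main users of the deoxynucleotides, were higher in 31 of 32 cases (median 0.89) and mitosis genes in 19 of 20 (median 0.56), with 0 lower in both. Over all genes tested, 34.8% were higher and 35.9% lower. Cdc45 (1.28), Lig1 (1.18) and Mcm6 (1.10) had the smallest p among replication genes, and Aurkb (0.92), Cenpa (0.74) and Cdk1 (0.85) among mitosis genes. The median of the nucleotide genes (0.76) lay between those of these lists. The share of cycling cells in each tissue was not measured here.

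**Figure D4:**
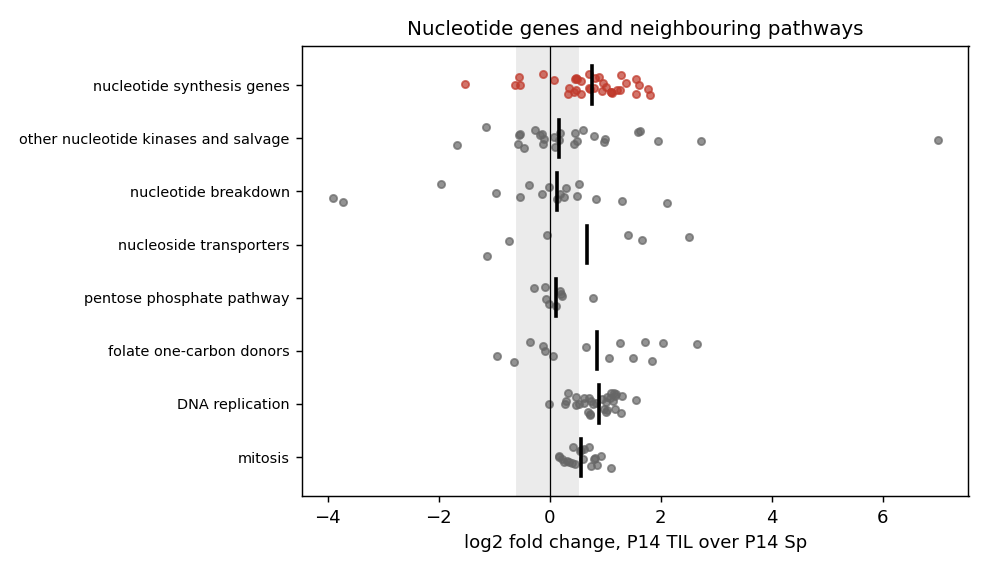
Log2 fold change, P14 TIL over P14 Sp, of each tested gene (points) in the 36 nucleotide synthesis genes (red) and 7 neighbouring lists (grey), with medians as black bars. The pale band is the interquartile range of all genes tested (-0.59 to 0.51), and the medians of the nucleotide, transporter, folate, replication and mitosis lists lie to the right of it.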

How the data were processed

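RNA of sorted P14 CD8+ T cells was measured in 3 tumor and 3 spleen libraries. Per the labels' protocols, cells from tumor passed a Percoll step before sorting, and the kits were an ultra-low-input one and a stranded one, with single reads of 50 bases. The authors deposited whole-number counts per gene, with no normalization. Tools in the submitters' processing notes are STAR 2.3, featureCounts and bcl2fastq 2.20.0.422, with build mm10. Not given in the sources used here are the annotation, the strand setting and how multi-mapped reads were treated.

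Each column was matched to a sample by its description. Of 55335 identifiers, 54587 matched GENCODE M21 (mm10) with their version and 567 without it, and 181 had no symbol there. GENCODE also gave coordinates and exon lengths. Genes passing filterByExpr (minimum count 10, minimum total 15) were fitted in R 4.3.3 by edgeR 4.0.16 with TMM factors and tissue as the term, using its quasi-likelihood F-test, and adjusted by Benjamini-Hochberg over all 19783, at 0.05. All 36 genes passed the filter. CPM is a count over the library total, and CPM per kb divides it by the union of annotated exons. SE is the absolute log2 fold change over the square root of F. Alternatives used DESeq2 1.42.0, limma 3.58.1, other scalings, no filter, a replicate block and each library left out. The procedure was tested on simulated data with the same variation in both groups and few changed genes. The real data differ in both respects, so that test does not show the error rates here. Replicate pairs differed by more than counting noise (chi-square per degree of freedom 2.19 to 33.2), so all 6 libraries were kept. Paralog ratios were compared by the exact permutation test (SciPy 1.17.1). Floors for a count of 0 use 3 counts and cover counting error only.

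Genes and lists were chosen with earlier results of these data known. Values of every library are given for the 3 called genes with the largest change per role and direction, for paralog pairs, for genes not called and for a few chosen after their values were seen. In the other lists, the 3 called genes with the smallest p in each direction are named. One gene that this rule names is not reported here.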

Additional observations from a re-analysis of the deposited data

How the results depend on the processing

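Under the 3 other scalings, no filter, limma-voom, the DESeq2 Wald test, the replicate block and each library left out, 30 of the 36 genes stayed called higher, and 4 were called lower (5 with upper-quartile scaling and without P14 TIL replicate 3, where Dck was added). No log2 fold change of the 36 genes changed sign under any of these or under the 2 alternatives added after seeing the data. The range over left-out libraries was 12898 to 14709 genes called in all, against 13984 with all libraries. With a 2-fold change as the null, by construction a stricter rule, 3025 genes passed (1161 higher, 1864 lower), and of the 36 genes 9 were higher and 1 lower. Summing gene models of shared sequence left 29 higher, because Nme1 and Nme2 became 1 unit, and changed the difference between tissues in the log2 ratio of Prps1 to Prps2 to 0.15, against 0.38.

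Deviations from the group means of libraries with the same number had correlations of -0.026, 0.037 and 0.012 between the tissues. No shared deviation by number was thus seen. Since the deviations may be technical, this cannot tell whether libraries of the same number came from the same mouse. The replicate block called 13772 genes, and among the 36 genes 30 higher and 4 lower, and the paralog ratios did not change by construction. Other scalings moved the median of all genes by less than 0.1 on the log2 scale. With these depths even Rrm2b, with the fewest counts of the 36 genes, had 214 to 510 counts per library.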

Other observations

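Nucleoside transporters, which feed the salvage enzymes, changed in both directions. Of 6 tested, 3 were higher in P14 TIL and 2 lower, where 34.8% of all genes tested were higher and 35.9% lower. With so few genes, these counts do not set the transporters apart from that background. The equilibrative transporter gene Slc29a1 was at 148 ± 16.4 CPM in P14 TIL and 57.04 ± 0.494 CPM in P14 Sp (log2 fold change 1.41, adjusted p = 5.3e-08 by edgeR, higher in 3 of 3 tumor libraries than in any spleen library), and Slc29a2 was at 5.20 ± 0.391 CPM in P14 TIL and 0.931 ± 0.196 CPM in P14 Sp (2.51). Slc28a3 was higher too, at under 1 CPM in both tissues (1.66). The concentrative transporter gene Slc28a2, which carries purine nucleosides, was at 60.5 ± 2.32 CPM in P14 TIL and 135 ± 2.90 CPM in P14 Sp (-1.13, adjusted p = 1.3e-08), and Slc29a4 was lower as well (-0.73).

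Genes of nucleotide breakdown gave 7 higher and 6 lower of 17 tested (median 0.14), near the shares of all genes tested (34.8% higher, 35.9% lower). Nudt5, an ADP-ribose hydrolase, rose by 1.31, Xdh, which makes uric acid, by 0.83, and Upp1, a uridine phosphorylase, by 2.12 at under 3 CPM. Xdh was at 262 ± 21.7 CPM in P14 TIL and 150.3 ± 2.39 CPM in P14 Sp. Lower were the AMP deaminase Ampd3 (-3.72), at 0.487 ± 0.191 CPM in P14 TIL and 6.57 ± 0.916 CPM in P14 Sp, Nudt16 (-0.96) and Ada, the adenosine deaminase (-0.53). Red cells also express Ampd3, and the summed erythroid markers were at 247 to 275 CPM in P14 TIL and 212 to 216 CPM in P14 Sp. Of the 8 erythroid markers, 5 were higher and 3 lower, with log2 fold changes from -5.32 to 0.65. The part of red cells in the Ampd3 value was not tested.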
